A study of Mus musculus with 2 samples.

Results

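The enzymes described here crosslink the extracellular matrix: the 5 lysyl oxidases *Lox*, *Loxl1*, *Loxl2*, *Loxl3* and *Loxl4*, and the 2 transglutaminases *Tgm2* and *F13a1*. They were taken by gene symbol, and all 7 were found among the 24421 rows of the count table. RNA-Seq counts were given for 2 libraries, 1 from primary chondrocytes and 1 from primary dermal fibroblasts. Rib cartilage of newborn mice was digested with collagenase to free the chondrocytes, which were used within 2 passages. The fibroblasts came from the back skin of newborns. In the study, RNA-Seq served to sort transcription factors with motifs in *Sox9* enhancers by whether chondrocytes express them above fibroblasts. The strain, the sex and the number of animals behind each of these libraries are not given in the sources used here, and no allele or treatment is named for either.

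Lysyl oxidases are secreted, copper-dependent enzymes that oxidize lysine and hydroxylysine side chains of collagens and elastin to aldehydes. The aldehydes then condense with neighbouring chains into covalent crosslinks, which give cartilage, skin, tendon and vessels their tensile strength. *Lox* and *Loxl1* are made with a propeptide that is cut off outside the cell, whereas *Loxl2*, *Loxl3* and *Loxl4* carry scavenger receptor cysteine-rich domains ahead of the same kind of catalytic domain. Transglutaminases join glutamine to lysine and are known for crosslinking fibronectin and fibrin. In growth cartilage, *Tgm2* and *F13a1* are known from chondrocytes that mature towards hypertrophy.

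The chondrocyte library held 18788599 counted reads and the dermal fibroblast library 17563724. Levels of 1 gene between libraries are given as scaled counts per 1000000 reads (scaled CPM), after scaling by edgeR TMM factors (0.954 and 1.05). A fold is a ratio of such levels, taken after counts under 3 were set to 3, and a gene was called when its fold was over 2. With 1 library per cell type there is no replicate check and no test, and each 95% interval covers counting error only. Of 10 chondrocyte markers, 10 were over 2-fold higher in chondrocytes, led in reads by *Col2a1*, *Acan* and *Col11a2*. Of 10 dermal fibroblast markers, led by *Col1a1*, *Col3a1* and *Dcn*, 9 were over 2-fold higher in dermal fibroblasts. The exception was *Lum*, which was chosen once its values were known, with a fold of 1.14 in chondrocytes over dermal fibroblasts. Each library thus carried most of the markers listed for its label, and both also held reads of markers of other cell types. The dermal fibroblast markers summed to 4646 scaled CPM in chondrocytes and 35207 in dermal fibroblasts. The chondrocyte markers summed to 105721 in chondrocytes and 23.9 in dermal fibroblasts. The part of fibroblast-like cells in the enzyme reads of the chondrocyte library was not tested. The lists were chosen with earlier results of these data known, so they are no independent check of the labels. Skeletal muscle markers, led by *Actc1*, *Myh3* and *Acta1*, summed to 1532 scaled CPM in chondrocytes and 1172 in dermal fibroblasts. Of these 8 markers, 4 were over 2-fold higher in chondrocytes and 0 in dermal fibroblasts. The 4, named after their values were seen, were *Pax7* (120 counts against 4), *Myf5* (36 against 1), *Myod1* (4.82-fold) and *Myog* (2.10-fold), the last of which fell to 1.91-fold with total counts in place of TMM. The part of muscle cells in the enzyme differences was not tested. Smooth muscle markers, led by *Acta2*, *Tagln* and *Des*, summed to 972 and 2045, and endothelial markers, led by *Kdr*, *Cdh5* and *Pecam1*, to 14.6 and 49.3. Of the 6 smooth muscle markers, 3 were over 2-fold higher in dermal fibroblasts and 1, *Des* (2.35-fold), in chondrocytes. Which cells gave these reads was not tested. Of all genes with a count above 0, 10.7% were over 2-fold higher in chondrocytes and 13.9% in dermal fibroblasts. In such bulk libraries, fewer cells of a type and less RNA per cell cannot be told apart.

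The largest fold was that of *Loxl4*, and the RefSeq promoter table held a 300 base window around its start site. This window (GRCm38.p6, minus strand, chr19:42612757-42613056) runs from 250 bases before the annotated start to 50 bases after it. It is shown because it is the start region of the gene with the widest difference between the cell types. Capitals mark the letters GGGCGG, known as the GC box.

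*Loxl4* promoter: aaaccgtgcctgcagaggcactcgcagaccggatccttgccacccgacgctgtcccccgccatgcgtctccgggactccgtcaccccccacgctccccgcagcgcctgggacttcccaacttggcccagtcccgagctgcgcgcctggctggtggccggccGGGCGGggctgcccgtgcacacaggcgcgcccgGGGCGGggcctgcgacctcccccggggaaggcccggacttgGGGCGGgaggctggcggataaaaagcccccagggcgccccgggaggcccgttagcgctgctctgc

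The window had a GC content of 75%, higher than that of 96.1% of the 32851 promoter windows in the table. It held GGGCGG 3 times on the strand shown, with its first base at -89, -56 and -15 from the start base, which is counted as 0. Of all windows, 35.7% held GGGCGG on either strand. The letters TATAAA (in 13.6% of all windows), ACAAAG (18.7%), ACAATG (12.6%) and ACGTG (19.6%) were searched on both strands and were not found in it. The table also gave *F13a1* a pair of start regions on the minus strand of chromosome 13 in the same build, shown because they differ in base composition although they serve 1 gene. None of the 5 motifs was found in either, so neither has capitals.

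*F13a1* promoter, chr13:37050195-37050494: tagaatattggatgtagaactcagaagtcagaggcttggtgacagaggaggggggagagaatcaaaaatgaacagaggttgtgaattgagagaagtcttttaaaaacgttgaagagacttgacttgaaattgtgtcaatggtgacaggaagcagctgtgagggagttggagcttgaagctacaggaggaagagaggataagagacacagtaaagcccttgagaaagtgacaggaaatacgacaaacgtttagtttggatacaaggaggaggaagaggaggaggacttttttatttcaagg

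*F13a1* promoter, chr13:37049164-37049463: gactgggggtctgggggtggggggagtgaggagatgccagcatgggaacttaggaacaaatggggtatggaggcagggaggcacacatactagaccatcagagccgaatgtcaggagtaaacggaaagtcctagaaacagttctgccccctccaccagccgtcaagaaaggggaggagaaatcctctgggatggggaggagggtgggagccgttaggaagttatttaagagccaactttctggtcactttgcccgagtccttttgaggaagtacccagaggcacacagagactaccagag

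The upstream window had a GC content of 42.7% and the downstream window 54.7%. The counts are per gene and do not say from which start site the *F13a1* reads came. A motif match is a description of the letters and not of a bound site.

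Of the 7 enzymes, 4 passed the 2-fold threshold towards chondrocytes, 2 passed it towards dermal fibroblasts and 1 did not pass it. All 7 had at least 100 counts in 1 library, as did 11162 genes. Among those genes, 8.79% passed it towards chondrocytes and 13.3% towards dermal fibroblasts. Among all 17718 genes with a count above 0, these shares were 10.7% and 13.9%. The median log2 fold of the 7 enzymes was 1.33, against 0.0055 over the genes with at least 100 counts. The lysyl oxidases did not all differ in 1 direction. The 2 propeptide-bearing members and the members with scavenger receptor domains stood on different sides of equality, *Loxl2* among the latter within the threshold.

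**Figure D1:**
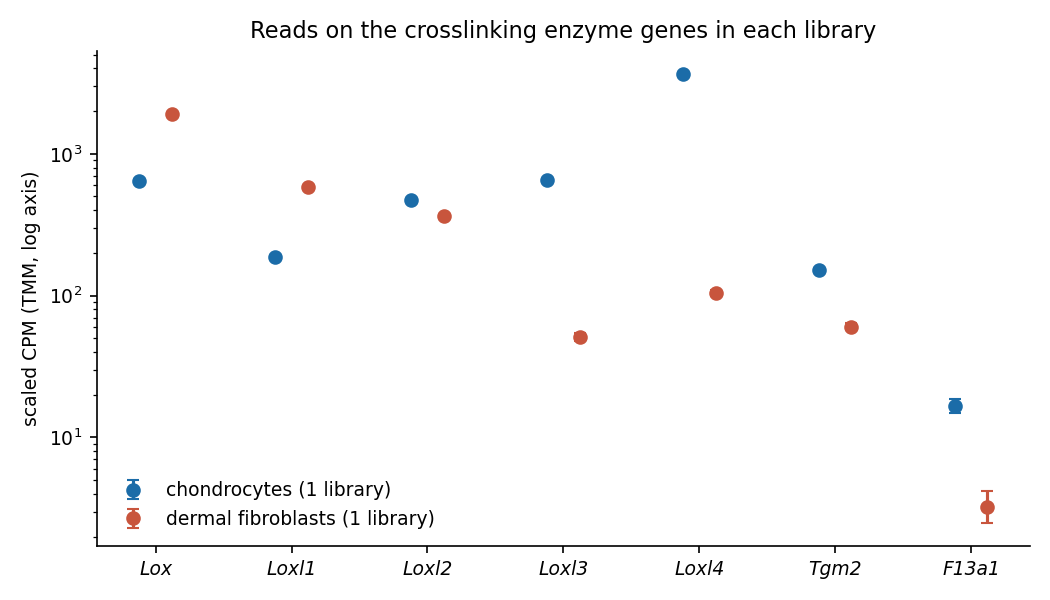
Scaled CPM (log axis) of each crosslinking enzyme gene in the chondrocyte library (blue) and the dermal fibroblast library (red), with exact 95% Poisson intervals for counting error, which are mostly smaller than the points. *Loxl4* was the highest in chondrocytes at 3669.9 and *Lox* the highest in dermal fibroblasts at 1897.

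*Loxl4* (GRCm38 chromosome 19, 42592279 to 42612806) drew 65781 reads from chondrocytes but 1921 from dermal fibroblasts. These are 3669.9 scaled CPM (interval 3642 to 3698) and 104 scaled CPM (interval 99.7 to 109). The gene was 35.2-fold higher in chondrocytes (interval 33.6 to 36.8). By count it ranked 12 among chondrocyte genes and 1828 among those of dermal fibroblasts. Of the genes with at least 100 counts, 99.3% had a smaller log2 fold, and 1.76% had a fold over 10 in chondrocytes. *Loxl4* encodes a member of the scavenger receptor subgroup.

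*Loxl3* (chromosome 6, 83034205 to 83052566) belongs to the same subgroup, and its loss in mice is known to cause cleft palate and spinal defects. Its counts were 11777 for chondrocytes and 941 for dermal fibroblasts, or 657 scaled CPM (interval 645 to 669) and 51.1 scaled CPM (interval 47.9 to 54.5). The difference was 12.9-fold (interval 12.03 to 13.8), and with *Loxl4* it is the other crosslinking enzyme over 10-fold higher in chondrocytes. In GENCODE vM1 its exons share 535 bp, 12.8% of their length, with *Htra2* on the opposite strand, which had 875 and 768 counts. The libraries keep the strand, but the strand setting of the counting is not given in the sources used here. The part of *Htra2* reads in the *Loxl3* counts was not tested.

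*Loxl2* (chromosome 14, 69608692 to 69695834), the third member with scavenger receptor domains, was close to equal. Chondrocytes gave 8487 counts and dermal fibroblasts 6723, or 473 scaled CPM (interval 463 to 484) and 365 (interval 356 to 374). The fold was 1.30 in chondrocytes over dermal fibroblasts (interval 1.26 to 1.34). This is beyond the counting error of the libraries and within the 2-fold threshold, and 74.5% of the genes with at least 100 counts had a smaller log2 fold.

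*Lox* (chromosome 18, 52516060 to 52529867), the founding enzyme of the family, was counted 11608 times for chondrocytes and 34920 times for dermal fibroblasts. The levels were 648 scaled CPM (interval 636 to 659) and 1897 (interval 1877 to 1917), a 2.93-fold difference towards dermal fibroblasts (interval 2.87 to 2.99). *Lox* ranked 37 by count in the dermal fibroblast library and 172 in the chondrocyte library, so it was an abundant transcript in both. *Loxl1* (chromosome 9, 58287723 to 58313212), which is known for its role in elastic fibres, had 3337 and 10766 counts. Its levels were 186 scaled CPM (interval 179.9 to 193) in chondrocytes and 585 (interval 574 to 596) in dermal fibroblasts, and it favoured dermal fibroblasts by 3.14-fold (interval 3.02 to 3.27). The log2 folds of *Lox* and *Loxl1*, chondrocytes minus dermal fibroblasts, were -1.55 and -1.65. Of the genes with at least 100 counts, 7.80% and 7.03% had a smaller value.

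*Tgm2* (chromosome 2, 158116405 to 158146392), the tissue transglutaminase, was counted 2719 times for chondrocytes and 1111 times for dermal fibroblasts. It was at 152 scaled CPM (interval 146 to 158) and 60.3 scaled CPM (interval 56.9 to 64.0), and the fold was 2.51 in chondrocytes over dermal fibroblasts (interval 2.34 to 2.70). In GENCODE vM1 its exons share 370 bp with *Rprd1b* on the opposite strand, which had 888 and 551 counts, and 633 bp with an opposite-strand transcript (RP23-396G1.3) that is not a row of the table. The part of these transcripts in the *Tgm2* counts was not tested. *F13a1* (chromosome 13, 36867178 to 37050244), the catalytic A subunit of coagulation factor XIII, was the least abundant of the 7 in both libraries. Chondrocytes gave 298 counts and dermal fibroblasts 60, or 16.6 scaled CPM (interval 14.8 to 18.6) and 3.26 (interval 2.49 to 4.195). The fold was 5.10 in chondrocytes over dermal fibroblasts, and its interval, from 3.85 to 6.85, was the widest of the 7 relative to its value.

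**Figure D2:**
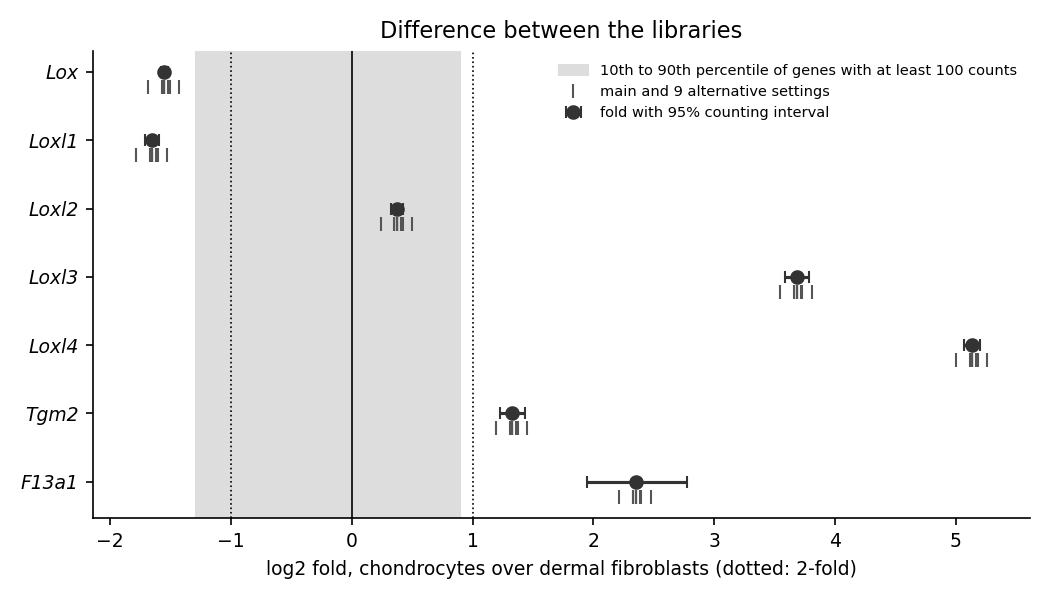
Log2 fold of each crosslinking enzyme gene, chondrocytes over dermal fibroblasts, with its 95% counting interval (points with bars) and its values under the main and 9 alternative settings of scaling, floor and filter (ticks). The grey band spans -1.29 to 0.90, the 10th to 90th percentile of genes with at least 100 counts in 1 library, and *Loxl2* is the only one of the 7 inside it.

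The lysyl oxidase reads were also set against each other within each library, which needs no scaling between the libraries. The make-up of the family differed widely. *Loxl4* took 65.1% of the 100990 lysyl oxidase reads in chondrocytes (exact Clopper-Pearson interval 64.8 to 65.4%) and 3.48% of the 55271 reads in dermal fibroblasts (interval 3.32 to 3.63%). *Lox* took 11.5% in chondrocytes (interval 11.3 to 11.7%) and 63.2% in dermal fibroblasts (interval 62.8 to 63.6%). Thus a different member held most of the reads in each library. *Loxl1* held 3.30% in chondrocytes and 19.5% in dermal fibroblasts, and *Loxl3* held 11.7% and 1.70%. *Loxl2* held a more even share, 8.40% and 12.2%.

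There were 5.67 reads on *Loxl4* per read on *Lox* in chondrocytes (interval 5.56 to 5.78) and 0.0550 in dermal fibroblasts (interval 0.0525 to 0.0576). These ratios differed 103-fold. By contrast, *Lox* and *Loxl1* kept nearly the same proportion. The ratio was 3.48 reads on *Lox* per read on *Loxl1* in chondrocytes (interval 3.35 to 3.62) and 3.24 in dermal fibroblasts (interval 3.17 to 3.31), and the ratios differed 1.07-fold. *Loxl3* stood at 1.39 reads per read on *Loxl2* in chondrocytes and 0.140 in dermal fibroblasts. *Loxl4* and *Loxl3*, both higher in chondrocytes, did not move in proportion, with 5.59 reads on *Loxl4* per read on *Loxl3* in chondrocytes (interval 5.48 to 5.70) against 2.04 in dermal fibroblasts (interval 1.89 to 2.21). *Tgm2* had 9.12 reads per read on *F13a1* in chondrocytes (interval 8.09 to 10.3) and 18.5 in dermal fibroblasts (interval 14.3 to 24.4).

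Levels between genes were compared per length, as transcripts per 1000000 (TPM) from the merged exon length of each gene. In chondrocytes the order was *Loxl4* (2751 TPM), *Loxl3* (495), *Lox* (436), *Loxl2* (279.8), *Loxl1* (176), *Tgm2* (104) and *F13a1* (8.15). In dermal fibroblasts it was *Lox* (1361 TPM), *Loxl1* (590.2), *Loxl2* (230.1), *Loxl4* (83.4), *Tgm2* (44.1), *Loxl3* (41.0) and *F13a1* (1.70). *Loxl4* was thus above 99.7% of genes with a length in chondrocytes and *Lox* above 99.4% in dermal fibroblasts. *F13a1* was above 44.9% and 27.0%. Without replicates, no neighbours in either order can be set against a spread between cultures. *Tgm2* and *Loxl3* in dermal fibroblasts were the closest pair of neighbours. Summed over the 5 lysyl oxidases, the level was 4138 TPM in chondrocytes and 2305 TPM in dermal fibroblasts. In reads, the family sum was 1.88-fold higher in chondrocytes (interval 1.86 to 1.90), from 1.71 with total counts to 2.04 when scaled to *Actb*, which takes it past the 2-fold threshold.

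**Figure D3:**
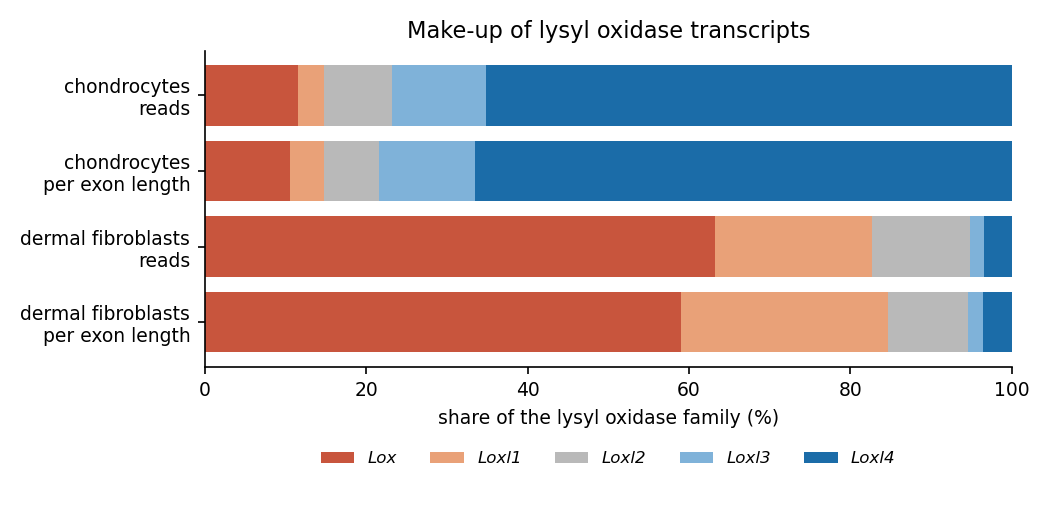
Share (%) of each lysyl oxidase gene in the family total of the chondrocyte and the dermal fibroblast library, by reads and by reads per exon length. *Loxl4* made up 65.1% of reads and 66.5% per length in chondrocytes, and *Lox* 63.2% of reads and 59.0% per length in dermal fibroblasts.

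Genes whose pair of levels was nearest to that of each enzyme, by Euclidean distance between log2 scaled CPM over the 2 libraries, are given as a description. For *Loxl3* they were *Wwp2* (12117 and 986 counts, distance 0.079), *Fmod* (12306 and 1051) and *Capn6* (10055 and 854). For *Lox* they were *Lgals1* (10113 and 31735 counts, distance 0.24), *Col12a1* and *Fstl1*. *Loxl1* lay nearest to *Ctsa*, *Jak1* and *Lama4*, *Loxl2* to *Hspd1*, *Stt3a* and *Ran*, *Tgm2* to *Nacc2*, *Irs1* and *Tacc2*, and *F13a1* to *Gcnt1*, *Glt8d2* and *Tmem117*. *Loxl4* had no close neighbour. Its nearest genes were *Ctgf* (43816 and 4141 counts) at a distance of 1.25, *Peg3* at 1.33 and *Plagl1* at 1.48, against at most 0.48 for the genes listed with the other 6 enzymes.

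Lysyl oxidases act on fibrillar collagens and elastin, and each of the 12 substrate genes listed was over 2-fold apart. Of these, 5 were higher in chondrocytes and 7 were higher in dermal fibroblasts, with a median log2 fold of -1.57. Over all genes with at least 100 counts, 8.79% and 13.3% passed 2-fold in these directions. *Col2a1*, the main collagen of cartilage, had 1447098 chondrocyte counts and no dermal fibroblast count (0). Its fold was 495432 with the 0 set to 3 counts. The counting interval, taken without the floor of 3, had a lower limit of 402912 and no upper limit. *Col1a1*, the main collagen of skin and bone, had 39143 and 322379 counts and leaned 8.02-fold towards dermal fibroblasts (interval 7.94 to 8.10). *Col3a1*, with 32090 and 273385 counts, was 8.29-fold higher there (interval 8.20 to 8.39). The substrates higher in chondrocytes included *Eln*, which encodes elastin and was named after its values were seen, with 4210 counts against 1595 and a 2.71-fold difference (interval 2.56 to 2.87).

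Before secretion, collagen lysines and prolines are hydroxylated, and hydroxylysine decides which crosslinks can form. Of 15 genes of hydroxylation and collagen folding, 4 were over 2-fold higher in chondrocytes and 0 in dermal fibroblasts. The shares over all genes with at least 100 counts were 8.79% and 13.3%. The other 11 of the list lay within 2-fold, and its median log2 fold was 0.51. With total counts the numbers were 2 in chondrocytes and 1 in dermal fibroblasts, since *Fkbp10* fell to 1.89 and *P4ha1* to 1.91 and *P4ha3* reached 2.17 towards dermal fibroblasts. *P3h2*, a prolyl 3-hydroxylase, had the largest fold, 11.97 (1363 counts against 117, interval 9.90 to 14.6). *Fkbp10*, a chaperone of lysyl hydroxylation, was 2.08-fold higher (9820 against 4860, interval 2.01 to 2.15). The others, named after their values were seen, were *Plod2*, the lysyl hydroxylase that acts on collagen telopeptides, and *P4ha1*, a prolyl 4-hydroxylase subunit. *Plod2*, at 11831 counts against 1950, showed a fold of 6.23 (interval 5.94 to 6.54), and *P4ha1* was 2.10-fold higher (interval 2.03 to 2.18). The collagen chaperone *Serpinh1* and *P4hb*, the list members with the most reads, had folds of 1.42 and 1.32. *P4ha3*, at a fold of 1.97 towards dermal fibroblasts (interval 1.75 to 2.22), had the largest fold in that direction.

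Of 12 genes that mature lysyl oxidases, bring them to the fibre or supply copper, 2 were over 2-fold higher in chondrocytes. In dermal fibroblasts 4 were over 2-fold higher, and 6 lay within 2-fold. Over all genes with a count above 0, 10.7% passed 2-fold towards chondrocytes and 13.9% towards dermal fibroblasts. The median log2 fold of the 12 was -0.38. *Postn*, a matrix protein that binds the protease BMP1, favoured dermal fibroblasts by 7.13-fold, at 5333 counts against 39067 (interval 6.93 to 7.34). *Pcolce*, which speeds procollagen cleavage by BMP1, was 2.83-fold higher there (6769 against 19665, interval 2.75 to 2.91). *Bmp1* itself, the protease that releases the *Lox* propeptide, favoured dermal fibroblasts by 4.63-fold (2363 against 11232, interval 4.43 to 4.84) and *Fbln5* 2.31-fold. Both were named after their values were seen. In the other direction, *Pcolce2*, the paralog of *Pcolce*, was 32.3-fold higher in chondrocytes (3142 counts against 100, interval 26.4 to 39.8). *Ltbp4*, also chosen by its values, was 2.04-fold higher there, with an interval from 1.88 to 2.22. With total counts its fold was 1.86, which left 1 member over 2-fold higher in chondrocytes. *Efemp2*, which brings *Lox* to elastin, had a fold of 1.19 towards dermal fibroblasts. The copper genes *Atp7a*, *Atox1* and *Slc31a1* lay within 2-fold, with folds of 1.12, 0.861 and 0.700 in chondrocytes over dermal fibroblasts.

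**Figure D4:**
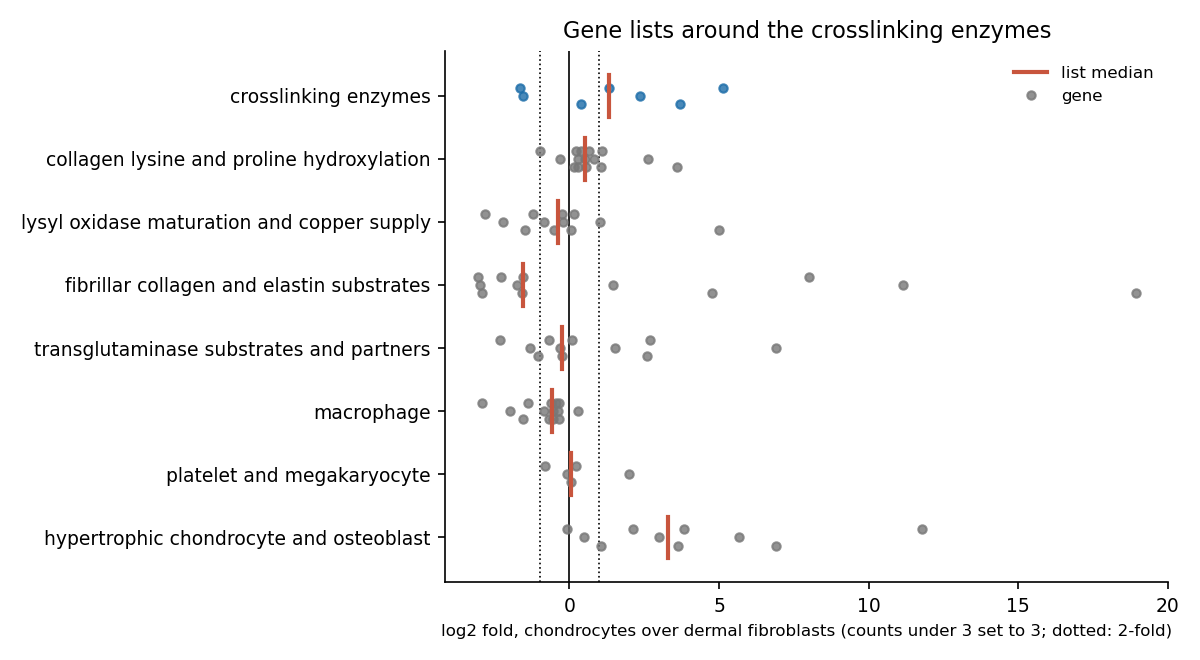
Log2 fold, chondrocytes over dermal fibroblasts, of the genes with counts in 8 lists, 1 point a gene, with the list median in red and the 2-fold threshold dotted. The crosslinking enzymes had a median of 1.33, the hydroxylation list 0.51, the substrate list -1.57 and the macrophage list -0.59.

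Among substrates and partners of transglutaminases, 4 of 11 were over 2-fold higher in chondrocytes and 3 in dermal fibroblasts. The shares over all genes with at least 100 counts were 8.79% and 13.3%. The other 4 lay within 2-fold, and the median log2 fold of the 11 was -0.26. *Fn1*, which encodes fibronectin, had 674829 chondrocyte counts against 116258 and thus a fold of 5.96, with limits of 5.92 and 5.999. *Ibsp*, bone sialoprotein, had 349 counts against 1, and its ratio of scaled counts, here without the floor of 3, was 358 with an interval from 63.9 to 14198. *Lrp1*, an endocytic receptor that takes up TGM2, stood 2.09-fold towards dermal fibroblasts (interval 2.05 to 2.13). Scaled to *Actb* its fold was 1.92, which left 2 members over 2-fold higher in dermal fibroblasts. *Itgb3*, an integrin subunit, was 5.04-fold higher there (135 against 699, interval 4.19 to 6.11). *Pdia3* had a fold of 1.07.

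The other genes listed beside the transglutaminases had few reads. Of these 8 genes, 2 had at least 100 counts in 1 library. *F13b* and *Epb4.2* had 0 counts in both, which does not show that they were absent. *Tgm4* had 113 chondrocyte counts against 135, giving a fold of 0.860 (limits 0.664 to 1.11). *Tgm1*, the keratinocyte transglutaminase, had 50 and 112 counts and a fold of 2.18 towards dermal fibroblasts (interval 1.55 to 3.11), the only one of the 8 over 2-fold apart. *Tgm5* had 0 and 5 counts. Keratinocyte markers were also higher in dermal fibroblasts. Of 8 such markers, 6 were over 2-fold higher in dermal fibroblasts and 0 in chondrocytes (all genes with counts: 13.9% and 10.7%). None was at 0 in either library, and the 8 summed to 9.21 scaled CPM in chondrocytes and 249.8 in dermal fibroblasts. *Krt14* had 17 and 1939 counts, *Krt5* 1 and 1693, and *Dsp* 27 and 722. The part of keratinocytes in the *Tgm1* reads was not tested.

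*F13a1* is also known from macrophages and platelets, and their markers were set beside it. Macrophage markers were present in both libraries, with 14 of 14 above 0 in each. Of the 14, 4 passed the 2-fold threshold towards dermal fibroblasts and 0 towards chondrocytes (all genes with counts: 13.9% and 10.7%). Their summed level was 138 scaled CPM in chondrocytes and 238 in dermal fibroblasts, and *Lyz2*, *Cd68* and *Mrc1*, those with the most reads, had 1046, 423 and 157 counts against 1639, 600 and 635. Platelet and megakaryocyte markers summed to 13.6 scaled CPM in chondrocytes and 9.34 in dermal fibroblasts, with *Gp9* at 0 in both and *Gp6* at 0 in chondrocytes. *Itga2b* had 63 and 55 counts and *Gp1bb* 38 and 69. Of the 6 listed, *Pf4* alone was over 2-fold higher in chondrocytes, with 131 counts against 34 (3.96-fold, interval 2.70 to 5.95). The part of macrophages, platelets or megakaryocytes in the *F13a1* reads was not tested.

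*F13a1* and *Tgm2* were higher in the chondrocyte library, as were the 10 chondrocyte markers. So were most markers of hypertrophic chondrocytes and osteoblasts. Of 10 such markers, 8 were over 2-fold higher in chondrocytes and 0 in dermal fibroblasts (all genes with counts: 10.7% and 13.9%). The summed level of the 10 was 977 scaled CPM against 156. *Col10a1*, the collagen of hypertrophic cartilage, had 10378 counts against 3. *Mmp13* had 2276 against 296, and *Pth1r* had 1439 against 1581. *Bglap* was at 0 in dermal fibroblasts and had 6 counts in chondrocytes, and with total counts it was under 2-fold, which left 7 of the 10. Whether the *F13a1* and *Tgm2* reads came from cells at this stage was not tested.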

How the data were processed

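RNA-Seq of 1 library of primary chondrocytes and 1 library of primary dermal fibroblasts was analysed from the deposited table of raw counts per gene symbol. The authors prepared stranded mRNA libraries, sequenced 75 bp single-end reads, called bases with CASAVA (1.8.2) and mapped to mm10 with TopHat2 (2.0.13), Bowtie2 (2.2.3) and SAMtools (0.1.19). The counting program, its annotation and its strand setting are not given in the sources used here. No molecular identifiers were used, so reads are not independent molecules and intervals cover counting error only. Symbols turned into dates made up 27 rows, which stayed in the totals.

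The whole table was scaled with edgeR (4.0.16, TMM) in R (4.3.3). Python (3.11.15) with pandas (2.3.3), scipy (1.17.1) and numpy (2.4.6) gave the folds and Clopper-Pearson intervals, after a check on simulated data. Alternatives were DESeq2 (1.42.0) size factors, total counts, upper quartile, totals without the 10 most abundant genes, *Actb*, a pseudocount of 1, a floor of 1 or of 10 counts, a filter of 10 counts, a fold over 4, and an interval wholly beyond 2-fold. TPM used GENCODE vM1 exon lengths, which named most genes with counts (15910 of 17718). Stretches of 75 bases shared between genes were searched among protein-coding transcripts only. *Loxl3* shared 326 of 4095 and *Tgm2* 105 of 3592 with other protein-coding genes, all on the opposite strand. *Loxl2* shared 3 of 5290, and the other 4 enzymes shared none. Gene positions and promoters are those of RefSeq on GRCm38.p6, the assembly of mm10, and 2 of the 7 genes were in the promoter table. RefSeq lists Loxl2 as an older name of *Loxl3*, and the table has a row for each. Named from each list were the 3 genes with the most reads and, in pathway lists, the largest fold in each direction among genes with at least 100 counts. The members and lists were chosen with earlier results of these data known.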

Additional observations from a re-analysis of the deposited data

How the results depend on the processing

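No paired analysis was possible because there was a single library for each group. There were 4 enzymes over 2-fold higher in chondrocytes and 2 over 2-fold higher in dermal fibroblasts. These counts were the same under the 5 other scalings, the pseudocount and the interval wholly beyond 2-fold. Both floors and the filter of 10 counts could not change them, since each enzyme had at least 60 counts in either library. With a fold over 4, which removes genes by construction, the counts were 3 and 0. Over all genes, 1887 and 2468 were called. These became 713 and 929 with a fold over 4 and 1041 and 1546 with the interval wholly beyond 2-fold, both stricter by construction, and 2874 and 2846 with the pseudocount of 1. They were 2596 and 2815 with a floor of 1 count, 1433 and 2026 with a floor of 10 counts, and 1583 and 2847 with total counts, so the numbers over all genes changed with the treatment of low counts and with the scaling. The other scalings were also run on the list counts, a choice made after seeing the data. Only 8 listed genes changed their call, 6 of them with total counts and 2 with *Actb*. They were *Fkbp10*, *P4ha1*, *P4ha3*, *Ltbp4*, *Bglap* and *Myog*, and *Lrp1* and the endothelial marker *Emcn*. Relative to TMM, total counts moved every log2 fold by -0.14 and *Actb* by 0.12. Of 63 enzyme folds under 9 alternatives, 14 fell outside the counting interval of the TMM value, with 0 changes of direction. The 9 include both floors and the filter, which could not move these folds. *Loxl4* ranged from 32.0 to 38.3, *Loxl3* from 11.7 to 14.0, *F13a1* from 4.64 to 5.55 and *Tgm2* from 2.29 to 2.74. Per longest transcript, a choice made after seeing the data, *Loxl4* made up 68.5% of the chondrocyte family and *Lox* 59.7% of the dermal fibroblast family. Depth limits *F13a1* most, with 60 counts in dermal fibroblasts, and no value says how the enzymes vary between cultures or animals.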
